A study of Mus musculus with 20 samples.

Results

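The Oscillospiraceae are a family of anaerobic gut bacteria, and their genera and species were followed here in mouse feces after chemotherapy. Members were all columns of the genus and species count tables that the classifier placed in the reference lineage Oscillospiraceae_88309 and that held at least 1 read. This gave 10 genus entries of 149 in the series and 17 species entries of 204, and the family had reads in all 20 samples. Of the 10 genus entries, 8 carry a genus name (Dysosmobacter, Enterenecus, Lawsonibacter, Evtepia, Limivicinus, Faecousia, Intestinimonas and UBA2658). The remaining entries are reads of a lineage whose genus name is blank in the reference, called the blank genus below, and reads that could not be placed in a genus, called unassigned. Of the 17 species entries, 9 carry a species name, and these held 61.6% of the family's 51821 reads. A second lineage with a similar name, Oscillospiraceae_45227, lies outside this rule and held 3 reads in each of 2 samples.

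The samples came from female C57BL/6 mice, 8 to 14 weeks old and co-housed by the study's methods. The FO group received oxaliplatin at 3.5 mg/kg into the peritoneum, 5-fluorouracil at 50 mg/kg 1 hour later and the same dose of 5-fluorouracil on the next day, and the control group received PBS or water on the same schedule. Feces were collected 5 days after treatment, and the V4 stretch of the 16S rRNA gene, which differs in sequence between bacterial taxa, was amplified and sequenced. Each group had 10 samples, 5 from each of 2 batches that the labels name E53B and E56A. By the study's methods 1 pellet was taken from each mouse, but the labels name no cages, so that mice that shared one cannot be told apart.

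Oscillospiraceae belong to the order Oscillospirales of the class Clostridia. They are strict anaerobes of the large intestine, and many are known only from their DNA, which is why several entries bear placeholder names. Cultured relatives ferment sugars or amino acids, and several release butyrate, the short-chain fatty acid that cells of the colon lining burn as fuel. Of 7 genera with such cultured species that were listed for this comparison, 4 had reads here (Dysosmobacter, Intestinimonas, Lawsonibacter and Evtepia), whereas Flavonifractor, Oscillibacter and Pseudoflavonifractor had no read in any sample.

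Total reads per sample ran from 17218 to 57415, and the family's own reads from 315 to 6803. With 3 reads as the limit that a count of 0 allows, a member without reads could still hold from 0.00523% to 0.0174% of a sample's reads. Such limits and intervals take in counting error alone, because PCR copies a molecule many times. Among 90 pairs of samples of the same group, the pair that differed least had a chi-square of 6.51 for each degree of freedom, so that no pair agreed within sampling noise. All values are relative: Muribaculaceae, the most frequent family, took 78.9% ± 5.61 of control reads and 53.4% ± 9.12 of FO reads (SD, n = 10 each), and a smaller share of 1 family enlarges the shares of the others without any change in their cells. Fewer Muribaculaceae and more Oscillospiraceae in a stool therefore cannot be told apart by shares of all reads.

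The first comparison asked whether the family as a whole differed between FO and control mice. In the control group its share of reads was lowest at 0.573% (replicate 5, 95% Wilson interval 0.513 to 0.640%), had a median of 3.70% and was highest at 4.85%. In the FO group the lowest share was 3.37%, the median 9.89% and the highest 13.6%. The groups were apart except for FO replicate 2, which lay within the control range, so that 9 of 10 FO samples exceeded the highest control sample. The mean rose from 3.28% ± 1.48 (SD, n = 10) to 8.73% ± 3.39 (SD, n = 10), 2.66 times the control mean (two-sided permutation test with 100000 resamples, p = 0.00018, adjusted p = 0.00112 over the 31 families tested). Among these 31 families 48.4% passed the test, 45.2% in the upward direction, and 12.9% had at least 9 of 10 FO samples above all controls. The difference between the group means stayed between 4.91 and 6.05 percentage points when each sample in turn was left out, and passed the test each time.

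**Figure D1:**
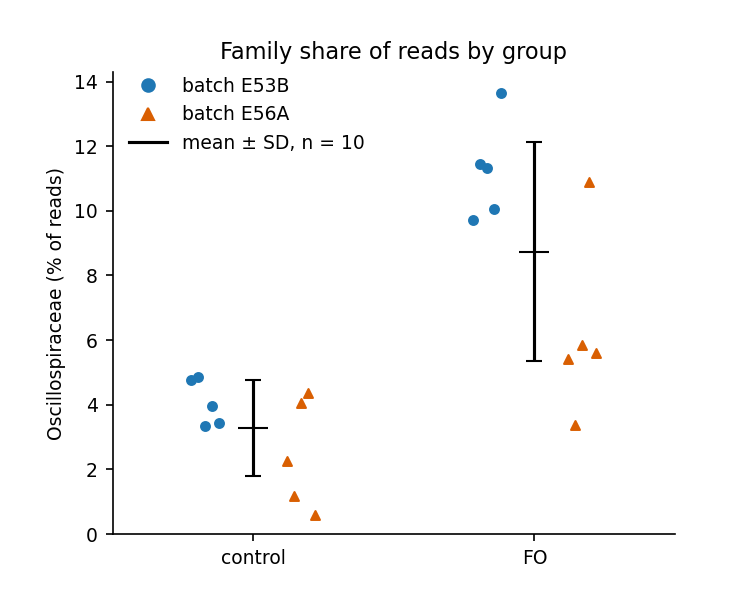
Share of all reads assigned to Oscillospiraceae (vertical axis, percent) in each control and FO sample, with circles for batch E53B, triangles for batch E56A and black bars for the mean and SD of 10 samples. The FO samples run from 3.37% to 13.6% and the control samples from 0.573% to 4.85%, and in each group the E53B mean lies above the E56A mean.

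Both batches showed a higher family share with FO. In batch E53B the control samples held 4.76%, 4.85%, 3.35%, 3.96% and 3.44% of reads and the FO samples 9.72%, 11.4%, 11.3%, 10.1% and 13.6%. The lowest FO sample of this batch held more than its highest control sample (exact permutation test, p = 0.00794, which is as low as 5 against 5 samples can go, adjusted p = 0.0273). In batch E56A the control samples held 2.25%, 1.19%, 4.05%, 4.35% and 0.573% and the FO samples 5.42%, 3.37%, 5.84%, 10.9% and 5.60%. Here 4 of 5 FO samples exceeded all control samples, and the difference did not pass after adjustment (exact permutation test, p = 0.0238, adjusted p = 0.105). Among the 31 families 48.4% passed in batch E53B and 0% in batch E56A, where 9 had an unadjusted exact p under 0.05. The size of the effect, 7.17 percentage points in E53B and 3.74 in E56A, was not shown to differ between the batches (permutation test of the interaction, p = 0.148, adjusted p = 0.822).

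The family's rise passed against all reads and against Muribaculaceae, whereas the tests against the rest of the community did not pass. Counted among the reads outside Muribaculaceae, it held 15.6% ± 6.99 (SD, n = 10) in control and 19.1% ± 6.93 (SD, n = 10) in FO samples, a difference that did not pass (permutation test, p = 0.275, adjusted p = 0.494). Its log2 ratio to Muribaculaceae went from -4.82 ± 1.05 (SD, n = 10) to -2.71 ± 0.74 (SD, n = 10), and this was the 1 ratio of 30, taken to every other family tested, that passed (permutation test, adjusted p = 0.0003). The ratios to Erysipelotrichaceae, with a log2 difference of 2.67, and to Ruminococcaceae, a related family of fiber-degrading Clostridia, with 0.73, came next and did not pass (permutation tests, adjusted p = 0.0523 and 0.0535). The Ruminococcaceae difference was 0.74 in E53B and 0.72 in E56A (exact permutation tests, unadjusted p = 0.0397 and 0.0317). For Erysipelotrichaceae it was 3.65 in E53B and 1.69 in E56A (exact permutation tests, unadjusted p = 0.00794 and 0.278). In edgeR, whose model of the counts held a term for batch and which scales samples by trimmed means of log ratios (TMM), the family's log2 change was 0.30 ± 0.27 (SE; adjusted p = 0.495, 10 samples per group, quasi-likelihood test). It ran from 0.26 to 0.69 with 1 sample left out at a time and passed in none of these fits (edgeR, adjusted p from 0.158 to 0.604). Scaled to total reads alone, the same model gave 1.40 ± 0.28 (SE; edgeR, adjusted p = 0.000246), where 56% of the 25 families tested passed against 4% with TMM.

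Within its order the family was dominant in both groups. It held 88.3% ± 3.12 (SD, n = 10) of Oscillospirales reads in control and 91.1% ± 3.13 (SD, n = 10) in FO samples. The difference did not pass (permutation test, p = 0.0588, adjusted p = 0.143, with 23.5% of 17 families passing in their own orders), although it did pass with FO replicate 3 left out (adjusted p = 0.0403). Of the 5 other families of Oscillospirales with reads, 3 were frequent enough to test, and 2 of them rose as a share of all reads: Acutalibacteraceae from 0.126% to 0.286% (permutation test, adjusted p = 0.0152) and Butyricicoccaceae, which include butyrate producers, from 0.0323% to 0.0770% (permutation test, adjusted p = 0.00861). Ruminococcaceae went from 0.257% to 0.418% and missed the threshold (permutation test, adjusted p = 0.0506). With TMM none of the 3 passed in edgeR, at log2 changes of 0.03, 0.04 and -0.36.

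The family's reads were concentrated in a few genera. Dysosmobacter and the blank genus together held 68.9% of them, and with Enterenecus, Lawsonibacter and Evtepia 96.2%. These 5 were the most frequent members in 19 of 20 samples, and they made up between 86.7% and 98.8% of the family in every sample. Dysosmobacter led in 8 control and 8 FO samples, and the blank genus in the remaining 2 of each group, both of batch E56A among controls and both of batch E53B among FO samples. All 10 genus entries had a higher mean share of reads in the FO group, as did 70 of the 83 genera tested. Dysosmobacter accounted for 38.2% and the blank genus for 32.5% of the rise of the family.

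Each genus was then compared as a share of all reads. Of the 10 genus entries 7 rose and none fell (permutation tests), beside 41% of the 83 genera tested that passed in either direction and 36.1% that rose. At least 9 of 10 FO samples exceeded all control samples in Evtepia, Lawsonibacter and UBA2658, which 6.02% of all genera did. After a random draw that brought every sample to the smallest total, 10 FO samples did so in Evtepia, 8 in Lawsonibacter and 5 in UBA2658. A separate draw gave 4 for the Evtepia species entry, which holds the same reads, so these counts depend on the draw.

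Dysosmobacter includes the human gut isolate Dysosmobacter welbionis, a butyrate producer that can use myo-inositol. Its share of reads was lowest at 0.156%, had a median of 1.42% and was highest at 2.40% in control samples, against 1.24%, 3.60% and 5.71% in FO samples. The groups overlapped, with 6 of 10 FO samples above all controls. The mean rose 2.57-fold, from 1.33% ± 0.704 (SD, n = 10) to 3.41% ± 1.53 (SD, n = 10; permutation test, adjusted p = 0.00679).

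The blank genus has no cultured name to describe it by. Its control samples ran from 0.138% over a median of 0.876% to 1.51%, and its FO samples from 0.883% over a median of 2.08% to 5.41%. Here 7 of 10 FO samples exceeded all control samples, all 5 of batch E53B among them. The mean rose 2.96-fold, from 0.905% ± 0.484 (SD, n = 10) to 2.68% ± 1.58 (SD, n = 10; permutation test, adjusted p = 0.00679).

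Enterenecus, a genus described from gut genomes, had a lowest share of 0.0782%, a median of 0.442% and a highest of 0.788% in control samples, and 0.430%, 1.03% and 2.30% in FO samples. Its mean rose 2.87-fold, from 0.423% ± 0.201 to 1.22% ± 0.623 (SD, n = 10 each; permutation test, adjusted p = 0.00384), with 7 of 10 FO samples above all controls. Lawsonibacter, whose cultured species make butyrate, ran from 0.0509% over a median of 0.384% to 0.487% in control samples and from 0.394% over a median of 0.753% to 1.40% in FO samples. Only FO replicate 2 lay within its control range, and its mean rose 2.51-fold, from 0.335% ± 0.162 to 0.842% ± 0.318 (SD, n = 10 each; permutation test, adjusted p = 0.00083).

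Evtepia, a genus whose cultured species grows on the neurotransmitter GABA, rose as a share of all reads. Its control samples ran from 0.0728% over a median of 0.124% to 0.220%, and its FO samples from 0.190% over a median of 0.286% to 0.356%. FO replicate 8 was below the highest control sample and the other 9 FO samples were above it. The mean rose 2.16-fold, from 0.132% ± 0.0420 to 0.285% ± 0.0572 (SD, n = 10 each; permutation test, p = 1e-05, the smallest that 100000 resamples can give, adjusted p = 0.000415).

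UBA2658 and Limivicinus, which are less frequent, rose as well. UBA2658, a placeholder name for an uncultured genus, had no reads in 2 control samples and at most 9, and from 2 to 40 reads in the FO samples. Its mean share rose from 0.00767% ± 0.00647 to 0.0406% ± 0.0215 (SD, n = 10 each; permutation test, adjusted p = 0.000622), with 9 of 10 FO samples above all controls, or 5 of 10 at the smallest total. Limivicinus, a genus known from genomes, rose from 0.0492% ± 0.0180 to 0.0842% ± 0.0352 (SD, n = 10 each; permutation test, adjusted p = 0.0308). Its groups overlapped widely, and the call was lost when control replicate 2, 5, 8 or 10 was left out, with an adjusted p of at most 0.0603.

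Faecousia, the unassigned reads and Intestinimonas did not pass. Faecousia held 0.0397% ± 0.0276 in control and 0.0471% ± 0.0208 in FO samples (SD, n = 10 each; permutation test, adjusted p = 0.567), and the unassigned reads 0.0393% ± 0.0254 and 0.0538% ± 0.0385 (SD, n = 10 each; permutation test, adjusted p = 0.394). Intestinimonas, whose single species here makes butyrate from sugars and from the amino acid lysine, had from 0 to 14 reads in the control samples. In the FO samples its counts were 3, 3, 3, 15 and 122 in batch E56A and 25, 71, 37, 9 and 3 in batch E53B. The mean share was 0.0144% ± 0.0110 in control and 0.0718% ± 0.0831 in FO samples (SD, n = 10 each; permutation test, adjusted p = 0.0925), with 5 FO samples above all controls and the rest within the control range. It passed with any 1 of FO replicates 1, 2, 3 and 10 left out, at an adjusted p of no less than 0.0448. Of the 4 genera with cultured species, 3 thus rose as a share of reads, beside the 36.1% of all genera. In edgeR with TMM 1 of the 4 rose, beside 10.2% of the 59 genera tested. As shares of the reads outside Muribaculaceae none of the 4 passed, nor did any of the 75 genera tested.

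**Figure D2:**
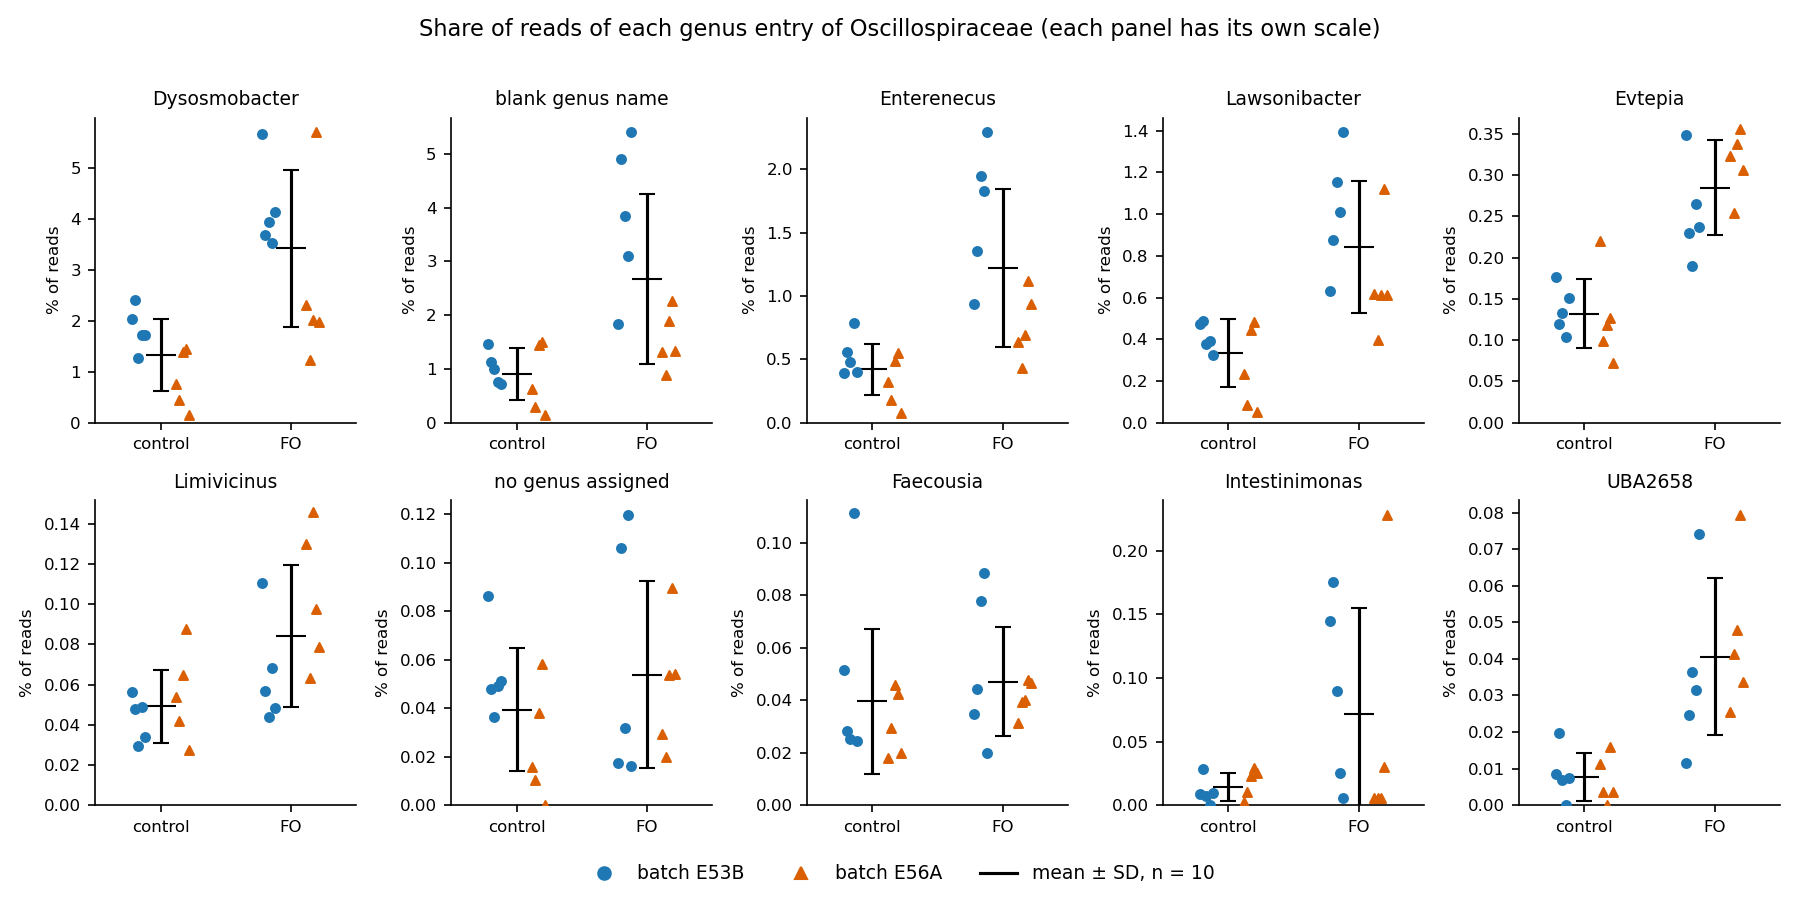
Share of all reads (vertical axes, percent, each panel on its own scale) of the 10 genus entries in each control and FO sample, with circles for batch E53B, triangles for batch E56A and black bars for the mean and SD of 10 samples, which end at 0 where the SD is larger than the mean. At least 9 of 10 FO samples lie above all control samples in Evtepia, Lawsonibacter and UBA2658, and the groups overlap fully in Faecousia.

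Within a single batch fewer of the members passed. In batch E53B alone 6 of the 10 entries passed as a share of all reads, all upward, beside 32.5% of the 83 genera, and Limivicinus was the 1 of the 7 that did not (exact permutation test, p = 0.103, adjusted p = 0.186). All 5 FO samples lay above all 5 control samples there for the blank genus, Dysosmobacter, Evtepia, Lawsonibacter and Enterenecus (exact permutation tests, p = 0.00794, adjusted p = 0.0329 for each), beside 19.3% of the 83 genera. In batch E56A none of the 10 passed after adjustment, nor did any other genus (0%), while 6 of the 10, and 19 of the 83, had an unadjusted exact p under 0.05. The exact test at 5 against 5 cannot go below p = 0.00794. After adjustment over 83 genera a genus at this floor passes only if many others reach it too, so its own values alone could not decide. The means of all 10 entries were nonetheless higher with FO in E56A, as were those of 66 of the 83 genera. Evtepia and UBA2658 had all 5 FO samples above all 5 control samples (exact permutation test, p = 0.00794, adjusted p = 0.11 for each), beside 7.23% of the 83 genera. The blank genus rose 3.78-fold in E53B, whereas its means in E56A were 0.800% and 1.53%. This difference between the batches had a permutation p of 0.0442 and did not pass after adjustment (adjusted p = 0.408), and none of the other 9 entries had an interaction p under 0.05. In edgeR no member's FO effect differed between batches (0 of 9 tested, beside 0% of 59 genera). None of the 9, and 6 of the 59, had an unadjusted p under 0.05. DESeq2 and limma on centred log ratios gave 0 members as well, limma with 1 member at an unadjusted p under 0.05, and each called 1 of the 59 genera.

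Counts of the genera were also tested in edgeR with TMM scaling, which compares each genus with the bulk of the other genera and not with the total. UBA2658 was too sparse for this test. It entered 11 of the 20 fits that left out 1 sample and passed in 5 of them, at log2 changes from 1.37 to 1.82 over the 11. No control sample held more than 9 of its reads, so it passed the count filter only through its FO samples. Those fits are therefore not taken as support for a rise. Of the 9 members tested 2 rose and none fell, beside 22% of all 59 genera tested and 10.2% that rose. Enterenecus had a log2 change of 0.80 ± 0.25 (SE; edgeR, adjusted p = 0.0234) and Dysosmobacter one of 0.78 ± 0.28 (SE; edgeR, adjusted p = 0.0443). Both calls were unsteady: Enterenecus passed in 10 of the 20 fits that left out 1 sample each, with log2 changes from 0.52 to 0.93, and Dysosmobacter in 8, with log2 changes from 0.48 to 0.88. The samples whose omission ended the Enterenecus call were control replicates 1, 2, 4, 5, 6, 7, 8 and 9 and FO replicates 4 and 10. The Dysosmobacter call was kept only without control replicate 3 or 10 or without FO replicate 2, 3, 5, 7, 8 or 9.

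The blank genus and Lawsonibacter had changes of like size just outside the threshold, and Intestinimonas was at 1.55 ± 0.77 (SE; edgeR, adjusted p = 0.147), or at 0.64 without FO replicate 5. The log2 changes of the blank genus and Lawsonibacter were 0.78 ± 0.30 (SE; edgeR, adjusted p = 0.0552) and 0.69 ± 0.28 (SE; edgeR, adjusted p = 0.0668). With 1 sample left out the blank genus ran from 0.50 to 1.00 and passed without control replicate 3, FO replicate 2 or FO replicate 5, and Lawsonibacter ran from 0.38 to 0.85 and passed without control replicate 3. Evtepia was at 0.39 ± 0.26 and Limivicinus at 0.05 ± 0.29, while Faecousia was at -0.46 ± 0.34 and the unassigned reads at -0.12 ± 0.50 (log2 change ± SE, edgeR, none passing). The median log2 change was 0.69 over the 9 members and 0.23 over all 59 genera tested.

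Which members passed depended on what the counts were scaled to. With total reads as the only scaling, 6 of the 9 members rose (Dysosmobacter, the blank genus, Enterenecus, Lawsonibacter, Evtepia and Intestinimonas), beside 49.2% of the 59 genera that passed and 42.4% that rose. The median log2 change was then 1.34 over the members and 0.99 over all genera. With the reads outside Muribaculaceae as library size, none of the 9 passed in edgeR and 1, Faecousia at a log2 change of -0.86 ± 0.40 (SE), had an unadjusted p under 0.05. Of all 59 genera 0 rose and 9 fell there, and 16 had an unadjusted p under 0.05. The median over the members was 0.23, and -0.19 over all genera. Limivicinus, Faecousia and the unassigned reads changed sign between these scalings, so no direction relative to the community is given for them.

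**Figure D3:**
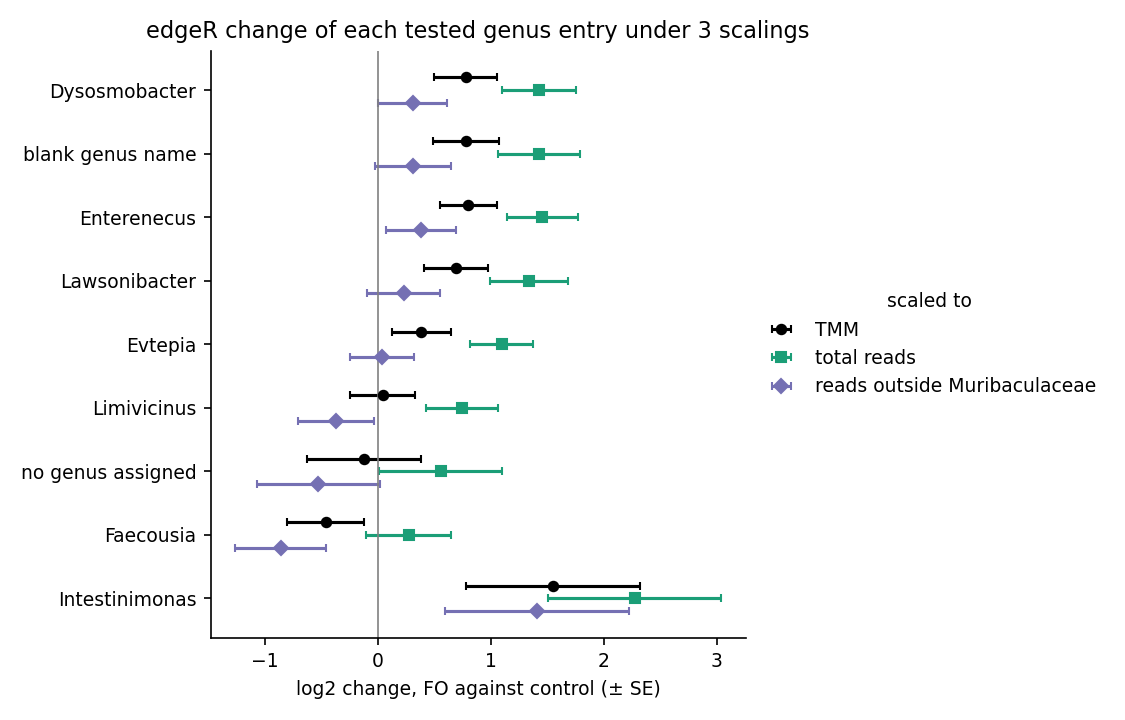
Log2 change of the 9 tested genus entries between FO and control (horizontal axis, with bars for the SE) in edgeR under 3 scalings, namely TMM, total reads, and reads outside Muribaculaceae. For Dysosmobacter the change is 0.78 with TMM, 1.43 with total reads and 0.31 with reads outside Muribaculaceae, and the 3 values of each other genus lie in the same order.

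The makeup of the family itself was compared next, by taking each genus as a share of the family's own reads, which does not depend on Muribaculaceae. None of the 10 entries passed (permutation tests, 0% of the 64 genera tested in their own families), and 2 of the 10, beside 9 of the 64, had an unadjusted p under 0.05. Dysosmobacter held 38.8% ± 7.35 of the family in control and 39.2% ± 9.16 in FO samples, and Lawsonibacter 9.90% ± 1.26 and 9.94% ± 1.63 (SD, n = 10 each). The blank genus was at 27.0% ± 5.59 and 29.3% ± 7.98, Enterenecus at 13.3% ± 3.01 and 13.7% ± 3.19, and Evtepia at 5.38% ± 3.59 and 3.97% ± 2.08 (SD, n = 10 each). These differences in group means were smaller than the spread between the samples of a group.

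Faecousia and UBA2658 came closest to a changed place in the family. Faecousia held 1.48% ± 1.04 of the family's reads in control and 0.617% ± 0.299 in FO samples (SD, n = 10 each; permutation test, p = 0.00863, adjusted p = 0.11), with 5 of 10 FO samples below every control sample. After all samples were drawn down to the smallest total, 1 FO sample was (permutation test, p = 0.0399, adjusted p = 0.309). The ratio of its means was 0.414 in E53B and 0.418 in E56A. UBA2658 went the other way, from 0.279% ± 0.204 to 0.537% ± 0.330 (SD, n = 10 each; permutation test, p = 0.047, adjusted p = 0.313). Limivicinus stood at 1.96% ± 1.28 and 1.21% ± 0.807, the unassigned reads at 1.05% ± 0.490 and 0.653% ± 0.370, and Intestinimonas at 0.791% ± 1.31 and 0.885% ± 1.25 (SD, n = 10 each).

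**Figure D4:**
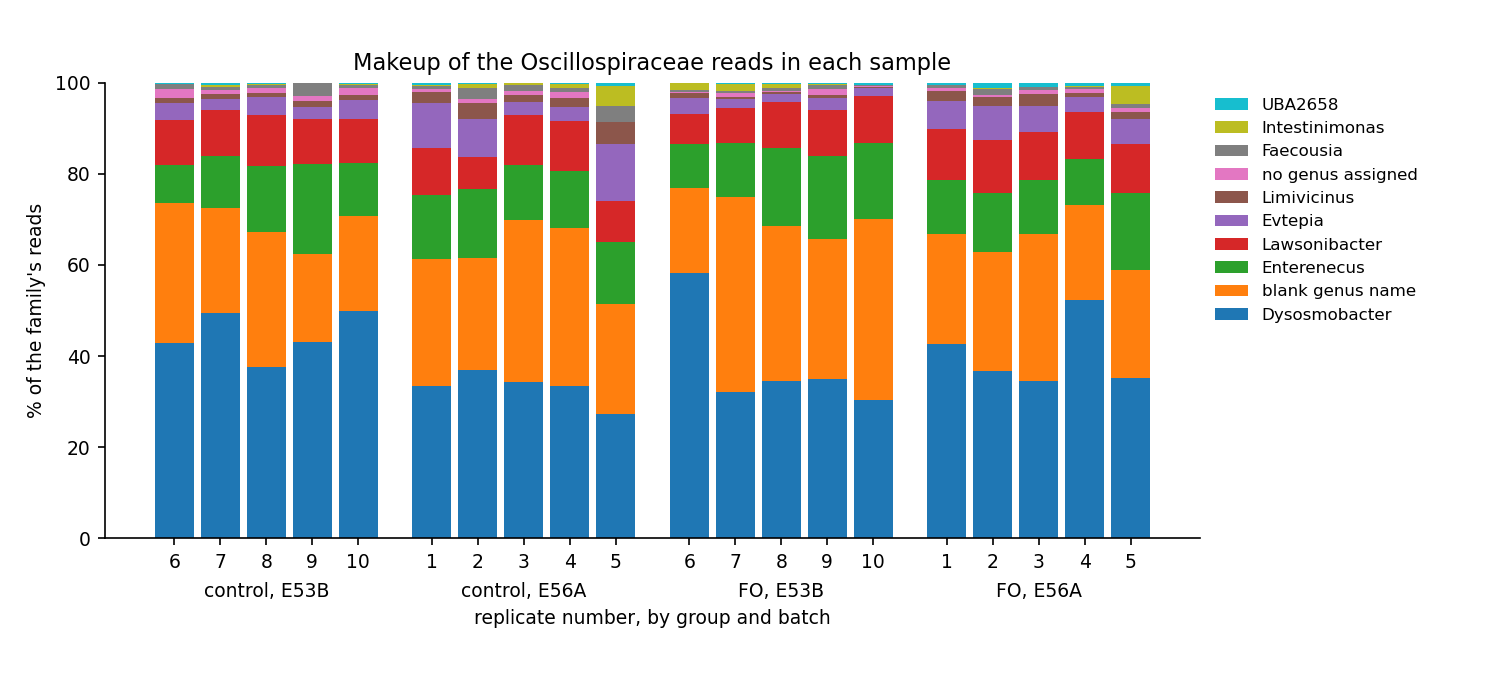
Share of the family's reads (vertical axis, percent, stacked to 100) held by each of the 10 genus entries in every sample, ordered by group and batch, with the replicate number under each bar. Dysosmobacter is the largest block in 16 of the 20 samples, and its mean is 38.8% of the family in control and 39.2% in FO samples.

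The family and its makeup were also compared between the batches, and none of these differences in shares passed after adjustment. Among FO samples the family held 11.2% ± 1.54 of reads in E53B and 6.22% ± 2.80 in E56A (SD, n = 5 each; exact permutation test, p = 0.0238, adjusted p = 0.185), and among control samples 4.07% ± 0.711 and 2.48% ± 1.68 (SD, n = 5 each; exact permutation test, p = 0.111). In the control samples of E53B Dysosmobacter held 42.9%, 49.4%, 37.6%, 43.1% and 49.9% of the family's reads, and in those of E56A 33.5%, 36.9%, 34.3%, 33.4% and 27.3%. The groups did not overlap, and the test could go no lower (exact permutation test, 5 against 5, p = 0.00794, adjusted p = 0.0726). Limivicinus differed the other way, at 1.06% ± 0.145 in E53B and 2.86% ± 1.28 in E56A (SD, n = 5 each; exact permutation test, p = 0.00794, adjusted p = 0.0726). With FO Dysosmobacter was at 38.04% ± 11.4 in E53B and 40.3% ± 7.46 in E56A (SD, n = 5 each; exact permutation test, p = 0.659), so that its mean was below control in E53B and above it in E56A. That difference between the batches did not pass (permutation test of the interaction, p = 0.0627, adjusted p = 0.309). The blank genus and the unassigned reads had interaction p of 0.0419 and 0.0387 as shares of the family's reads and did not pass either (permutation tests, adjusted p = 0.274 for each).

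In edgeR with TMM none of the 9 members differed between E56A and E53B, beside 11.9% of the 59 genera. An unadjusted p under 0.05 was found for 3 of the 9, beside 15 of the 59. DESeq2 called 3 members, beside 8 genera higher and 3 lower of the 59, and limma on centred log ratios called 3, beside 1 higher and 5 lower. In both, Dysosmobacter and Enterenecus were lower in E56A, at log2 differences of -0.81 ± 0.25 and -0.77 ± 0.22 (SE) in DESeq2 (adjusted p = 0.0114 and 0.00718). Limivicinus was higher in E56A, by 0.75 ± 0.25 (SE) on the log2 scale in DESeq2 (adjusted p = 0.0204). What set the batches apart was not tested.

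At the species level most genera consisted of 1 entry, so that Enterenecus sp004560375, Evtepia, Limivicinus sp002320035, Faecousia sp000434635 and Intestinimonas butyriciproducens repeat the values of their genus. Dysosmobacter, Lawsonibacter and UBA2658 were split into 4, 4 and 2 entries. With TMM 12 of the 17 species entries could be tested in edgeR, and 3 rose and none fell, beside 23.9% of 71 species entries that passed and 9.86% that rose. With total reads as the only scaling 8 rose, beside 49.3% that passed and 40.8% that rose. As shares of all reads, 8 of the 17 rose and 1 fell (permutation tests), beside 18.9% of 175 entries that rose and 3.43% that fell. Of the 8, Limivicinus sp002320035 (adjusted p = 0.0482) was called in 5 of the 20 fits that left out 1 sample, those without control replicate 4 or FO replicate 2, 7, 8 or 10, and its adjusted p reached 0.0900 in the others. At least 9 of 10 FO samples exceeded all control samples in 1.71% of the 175 entries, of which the Evtepia entry was one. After a random draw to the smallest total, 4 FO samples of the Evtepia entry did.

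Dysosmobacter sp000403435, a placeholder name for a genome without a described species, carried the genus in both groups, with 95.3% of the genus's pooled reads in control and 95.7% in FO samples. Its share of all reads rose from 1.27% ± 0.668 to 3.28% ± 1.52 (SD, n = 10 each; permutation test, adjusted p = 0.0127), and its log2 change was 0.80 ± 0.27 with TMM (SE; edgeR, adjusted p = 0.0293). This call was lost in 10 of 20 fits with 1 sample left out. Those were the fits without control replicate 1, 2, 3, 7, 8 or 10 or without FO replicate 1, 2, 4 or 5. Enterenecus sp004560375 had a log2 change of 0.83 ± 0.26 (SE; edgeR over species, adjusted p = 0.0186). It kept its call in 15 of 20 such fits, the exceptions being those without control replicate 7, 8 or 10 or FO replicate 4 or 5.

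The Dysosmobacter reads that were not assigned to a species moved against the rest of their genus. They numbered 0, 4, 3, 12 and 0 in the control samples of E56A and 7, 11, 20, 13 and 8 in those of E53B. In the FO samples they were 0 in 9 of 10, with 9 reads in FO replicate 5 of E56A. The mean share fell from 0.0184% ± 0.0157 to 0.00168% ± 0.00532 (SD, n = 10 each; permutation test, adjusted p = 0.0267), and from 1.33% to 0.0636% of the genus's pooled reads. In E53B every control sample had such reads and no FO sample did (exact permutation test, p = 0.00794, adjusted p = 0.0463), and in E56A no difference was detectable at this depth (exact permutation test, p = 0.563). The effect was not shown to differ between the batches (permutation test of the interaction, p = 0.0238, adjusted p = 0.478). The call was lost without control replicate 8 or without control replicate 10, at an adjusted p of at most 0.0519. In FO replicate 6, the shallowest sample, a count of 0 allows up to 0.0174%.

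The other Dysosmobacter entries did not pass. Dysosmobacter welbionis held 0.0193% ± 0.0154 in control and 0.0342% ± 0.0358 in FO samples (SD, n = 10 each; permutation test, adjusted p = 0.427). The Dysosmobacter lineage with a blank species name held 0.0267% ± 0.0304 and 0.1003% ± 0.123 (SD, n = 10 each; permutation test, adjusted p = 0.0869), and 176 of its 440 FO reads came from FO replicate 8.

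Lawsonibacter was made up mainly of Lawsonibacter sp000492175, with 80.8% of the genus's pooled reads in control and 70.9% in FO samples. This entry rose from 0.271% ± 0.140 to 0.607% ± 0.266 of all reads (SD, n = 10 each; permutation test, adjusted p = 0.0151), while its log2 change of 0.57 ± 0.29 with TMM did not pass (SE; edgeR, adjusted p = 0.164). Lawsonibacter reads without an assigned species were lowest at 0.0164%, had a median of 0.0600% and were highest at 0.0955% in control samples, against 0.0639%, 0.192% and 0.338% in FO samples. As many as 8 of 10 FO samples exceeded all control samples, and the mean rose 3.45-fold, from 0.0557% ± 0.0253 to 0.192% ± 0.0980 (SD, n = 10 each; permutation test, adjusted p = 0.00425). Their log2 change with TMM was 1.15 ± 0.34 (SE; edgeR, adjusted p = 0.0144) and passed in 18 of 20 fits with 1 sample left out, the exceptions being control replicate 7 and FO replicate 4.

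Lawsonibacter butyricus appeared mostly in FO samples of 1 batch. Its reads were 52, 28, 38, 66 and 0 in the FO samples of E56A and 1, 12, 0, 0 and 1 in those of E53B, and at most 9 in any control sample. The mean share was 0.00581% ± 0.00687 in control and 0.0399% ± 0.0483 in FO samples (SD, n = 10 each; permutation test, p = 0.0371, adjusted p = 0.118). The batch difference of the effect was close to the unadjusted threshold (permutation test of the interaction, p = 0.0507, adjusted p = 0.493). Lawsonibacter asaccharolyticus, a butyrate producer that does not ferment sugars, had at most 3 reads in any sample, which is at the limit that a count of 0 allows.

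UBA2658 consisted of a lineage with a blank species name, which rose from 0.00523% ± 0.00444 to 0.0320% ± 0.0205 of reads (SD, n = 10 each; permutation test, adjusted p = 0.00131), and of reads without an assigned species, which held 0.00244% ± 0.00498 and 0.00869% ± 0.00866 (SD, n = 10 each; permutation test, adjusted p = 0.175). Between batches 1 of the 12 species entries tested in edgeR differed, beside 11.3% of all 71. This was Limivicinus sp002320035, higher in E56A by 0.88 ± 0.28 on the log2 scale (SE; edgeR over species, adjusted p = 0.037). It was lost with RLE size factors, with total reads, with the reads outside Muribaculaceae, without a filter and with a minimum mean share of 0.01%, each of which called 0 members, at adjusted p from 0.134 to 0.387 in edgeR. DESeq2 called it too, at 0.70 (adjusted p = 0.0244), and called 4 members lower in E56A, while limma called 5 members, all lower. Of all 71 species entries DESeq2 called 7 higher and 5 lower, and limma 2 higher and 7 lower.

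**Figure D5:**
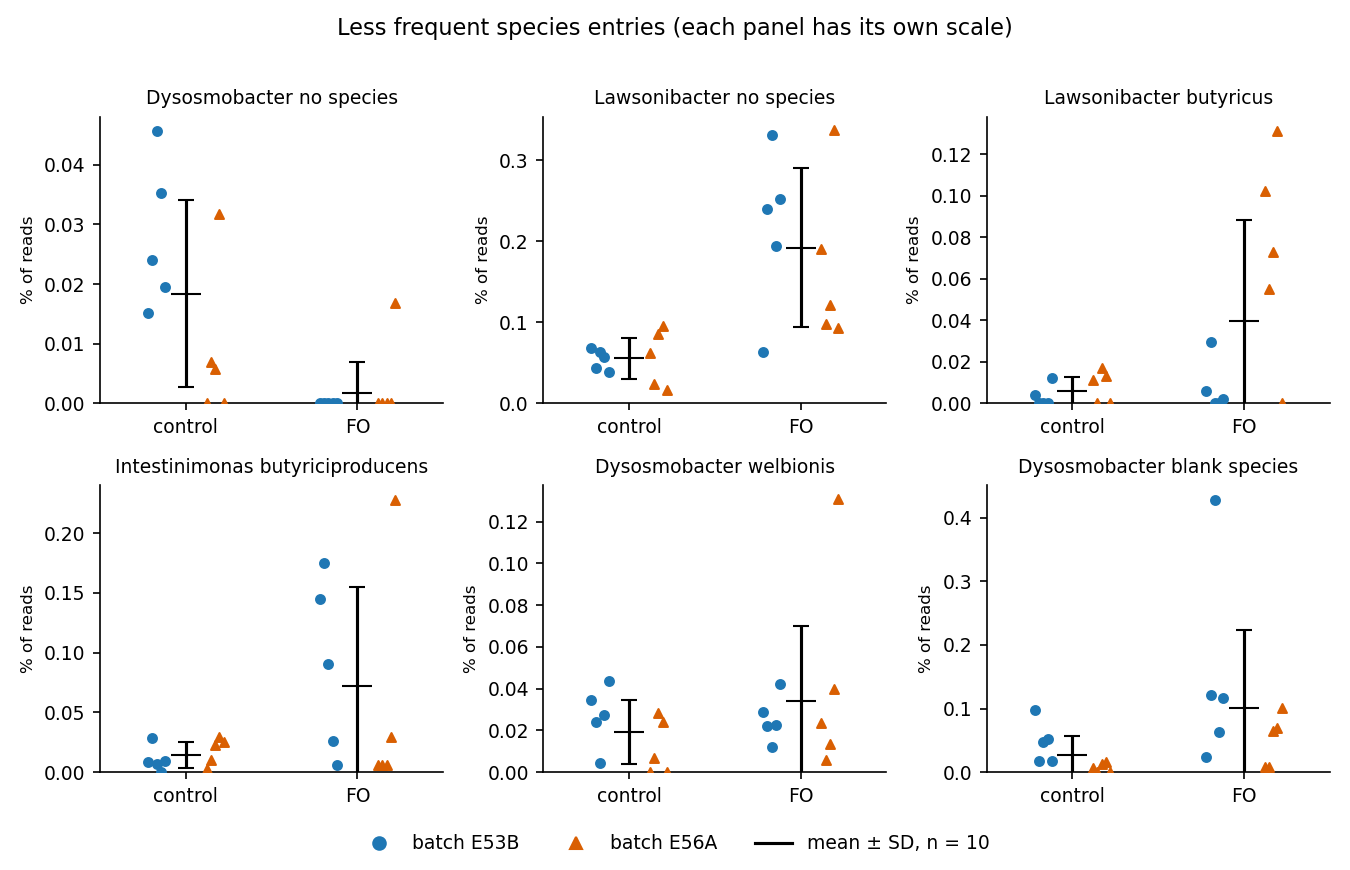
Share of all reads (vertical axes, percent, each panel on its own scale) of 6 less frequent species entries in each control and FO sample, with circles for batch E53B, triangles for batch E56A and black bars for the mean and SD of 10 samples, which end at 0 where the SD is larger than the mean. Unassigned Dysosmobacter reads are at 0 in 9 of 10 FO samples, and Lawsonibacter butyricus is highest in 4 FO samples of batch E56A.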

How the data were processed

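Per the labels and the study's methods, the authors amplified the V4 region of the 16S rRNA gene from stool DNA, sequenced it in pairs on an Illumina MiSeq, trimmed reads with cutadapt, merged, filtered and checked them for chimeras in QIIME2, and classified operational taxonomic units against Greengenes2. The submitters' processing notes also name bcl2fastq 2.2. The deposited values are whole-number read counts per taxon and sample, not normalized, and the family, genus and species tables were used. Only 5 of 295 member counts above 0 in the species table were exactly 1. A species name rests on 1 short region and can be wrong between close relatives.

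Members and lists were chosen with earlier results of these data known. Full values were given for genera averaging 0.1% of reads or more, species entries averaging 0.05% or more, and every member that passed a test. Shares were compared by two-sided permutation tests (100000 resamples, or exact within a batch) for families and genera averaging 0.01% or more. Counts were tested in edgeR 4.0.16 (quasi-likelihood test, TMM, filterByExpr, batch as a term). Benjamini-Hochberg adjustment covered all taxa of the rank, at a threshold of 5%. DESeq2 1.42.0, limma 3.58.1 (pseudocount 0.5), R 4.3.3, Python 3.11.15 and scipy 1.17.1 were used for alternatives and tests. Tests of species shares (mean of at least 0.001%), of ratios between families and of batches within a group were added after the data were seen. On simulated counts of the FO contrast with a median of 59 genera tested, edgeR recovered 87.6% of genera changed 4-fold, with 3.51% false calls. The simulation changed 30 genera per run, each up or down at random. It held no shift in a common direction like that of the shares here, and the members' changes with TMM were smaller than 4-fold. These rates were therefore not shown to hold for the calls above.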

Additional observations from a re-analysis of the deposited data

Results flagged for a closer look

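In 42 groups of 10 samples (the family, the genus entries and the split species entries, in control and in FO), the highest or lowest sample was compared with its nearest neighbour by the gap relative to the group's whole range. In 6 groups 1 sample stood far from the others. About 1 group in 20, or 2.1 of these, would be so for independent, normally distributed values. The shares overlap between genus and species entries and include counts of 0, so that this expectation does not hold here. In control replicate 9 Faecousia held 0.111% of all reads, against 0.0180 to 0.0517% in the other 9 control samples. The Dysosmobacter lineage with a blank species name was highest in control replicate 6, at 0.0970% against at most 0.0516%, and in FO replicate 8, at 0.429% against at most 0.121%. In FO replicate 5 Dysosmobacter welbionis held 0.131% of all reads, against at most 0.0421% in the other FO samples, and this was also the only FO sample with unassigned Dysosmobacter reads, at 0.0168%. UBA2658 reads without an assigned species were highest in control replicate 7, at 0.0153% against at most 0.00647%. No FO effect on a member differed between batches after adjustment.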

How the results depend on the processing

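The family's higher share of reads kept its direction in every alternative, but did not pass in batch E56A alone (a difference of 3.74 percentage points) or with reads outside Muribaculaceae as the denominator (3.50). In edgeR the family passed with total reads as the only scaling, at a log2 change of 1.40. Member genera called in edgeR, 2 with TMM (beside 13 of all 59 genera), numbered 1 with RLE size factors (14 of 59), without the batch term (12 of 59) and in E53B alone (12 of 61), 6 with total reads (29 of 59), and 0 with reads outside Muribaculaceae (9 of 59), without a filter (12 of 149), with a minimum mean share of 0.01% (8 of 83) and in E56A alone (0 of 62). Member species called, 3 with TMM (all higher, beside 17 of all 71 entries), numbered 8 with total reads (35 of 71), 5 in DESeq2 (22 of 71), 1 in E53B alone (higher, 15 of 74), 1 without a filter (lower, 17 of 204), 1 higher and 1 lower with a minimum mean share of 0.01% (18 of 104), and 0 with reads outside Muribaculaceae (12 of 71) and in E56A alone (0 of 73). Member genera with a changed share of reads, 7 in all (34 of 83 genera), numbered 0 in E56A alone (0 of 83) and with reads outside Muribaculaceae (0 of 75). Member species with a changed share of reads, 9 in all (39 of 175 entries), numbered 0 in E56A alone (0 of 175) and with reads outside Muribaculaceae (0 of 161). Member genera that differ between batches, 0 with TMM (7 of 59 genera), numbered 2 with RLE (7 of 59), 3 in DESeq2 (11 of 59) and 3 in limma (6 of 59). With 1 sample left out at a time, the difference in the family's share of its order ran from 2.26 to 3.55 percentage points, member genera called in edgeR from 0 to 5, member species from 0 to 5, and genera that differ between batches from 0 to 3. Signs of log2 changes in edgeR turned for Evtepia in E53B alone (-0.049), for Faecousia with total reads (0.27), for the unassigned reads with total reads (0.56) and in E56A alone (0.50), and for Limivicinus with RLE (-0.066), reads outside Muribaculaceae (-0.37), a minimum mean share of 0.01% (-0.075) and E53B alone (-0.33), in DESeq2 (-0.093) and in limma (-0.092), and between -0.21 and 0.12 with 1 sample left out. Signs turned with reads outside Muribaculaceae for the shares of Limivicinus (-0.0489 points), unassigned reads (-0.0660) and Faecousia (-0.0893). The cause was not tested. Members with a few reads per sample, such as Lawsonibacter asaccharolyticus, are limited by depth. No paired analysis was possible because the replicate numbers name samples within a group and do not pair them.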
